A study of Mus musculus with 18 samples.

Results

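Metabotropic glutamate receptors are G protein-coupled receptors for glutamate. The 6 described here, Grm2, Grm3, Grm4, Grm5, Grm7 and Grm8, are the lines of a raw count table that carry those symbols, 6 of the table's 24062 lines. Expression was measured by poly(A) RNA-seq in C57BL/6 mice that were either wild type (WT) or heterozygous for Chd2 (HET, Chd2+/-), a gene for a chromatin remodelling protein. Groups were the medial ganglionic eminence (MGE, the embryonic source of many inhibitory interneurons) and the cortex of E13.5 embryos, and P45 hippocampus, in both genotypes. The stated purpose was to compare RNA between Chd2+/- and WT in those tissues. Each of the 6 groups had 3 libraries, 18 in all, and the labels do not say whether each library came from a separate animal. p-values therefore measure the spread between these libraries, which may be technical. Age and tissue cannot be told apart in any comparison with the hippocampus, since both embryonic tissues were taken at E13.5.

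Mammalian metabotropic receptors fall into groups by sequence, coupling and pharmacology. Group I, to which Grm5 belongs, couples to Gq, activates phospholipase C and releases calcium from internal stores, and sits mainly on the postsynaptic side. Group II (Grm2 and Grm3) and group III (Grm4, Grm6, Grm7 and Grm8) couple to Gi/o and lower adenylyl cyclase activity. They act largely as presynaptic brakes on transmitter release, and Grm3 is also made by astrocytes. In the adult hippocampus, Grm5 takes part in long-term depression that needs new protein synthesis.

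Libraries held 26841671 to 38802765 counts. Levels are CPM, counts relative to library size, with library sizes scaled by the trimmed mean of M values (TMM) over all libraries, and folds come from edgeR's quasi-likelihood test, with a gene called at a Benjamini-Hochberg adjusted p under 0.05 over all genes tested. All 6 receptors passed the filter on low counts in all 13 comparisons. Chd2, the targeted gene, was lower in every HET library than in any WT library of its tissue. MGE libraries of the WT group ran from 154 to 175 CPM of Chd2 and those of the HET group from 136 to 145 CPM. The cortex gave 143 to 154 against 124.7 to 125.2 CPM, and the hippocampus 69.8 to 78.1 against 63.8 to 66.6 CPM. Chd2 was not called by edgeR in any tissue. Its log2 folds were -0.24 in the MGE (adjusted p = 0.98), -0.22 in the cortex (0.578) and -0.17 in the hippocampus (0.191). Adjusted over the 3 tissues alone, its edgeR p was 0.0235 in each. In these tissues 10.3%, 11.0% and 20.8% of all genes did not overlap between genotypes. The summed MGE list (Nkx2-1, Lhx6, Lhx8) was 1400 to 1773 CPM in MGE libraries and at most 23.4 CPM elsewhere, and the summed cortex list (Emx1, Emx2, Eomes, Tbr1) was 755 to 907 CPM in cortex libraries against 6.75 to 16.8 CPM in the MGE. Sex markers were not balanced. All MGE WT libraries had Xist at 1737 to 1920 CPM and all MGE HET libraries at 0.4996 to 1.08 CPM, so that genotype and sex cannot be told apart in the MGE. In the cortex, Y-linked genes were expressed in WT 1, HET 1 and HET 3, and in the hippocampus all 6 libraries had Xist at 518 to 672 CPM with Y-linked genes at or below 0.104 CPM.

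The sequence before the annotated start could be shown for 4 of the 6 receptors, Grm2, Grm3, Grm7 and Grm8. These 4 all rose from embryonic cortex to adult hippocampus (values below), and the group II pair is printed because it includes Grm3, the one receptor called by genotype. Each run holds the 250 bases before the RefSeq start (GRCm38.p6), 5′ to 3′ on the gene's own strand, with capitals marking motif matches.
Grm2, chr9:106656110-106656359, minus strand: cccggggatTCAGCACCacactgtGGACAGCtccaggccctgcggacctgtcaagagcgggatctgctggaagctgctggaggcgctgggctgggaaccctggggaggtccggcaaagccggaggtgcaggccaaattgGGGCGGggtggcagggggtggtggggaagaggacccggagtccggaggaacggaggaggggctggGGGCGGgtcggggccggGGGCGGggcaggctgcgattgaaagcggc
Grm3, chr5:9725353-9725602, minus strand: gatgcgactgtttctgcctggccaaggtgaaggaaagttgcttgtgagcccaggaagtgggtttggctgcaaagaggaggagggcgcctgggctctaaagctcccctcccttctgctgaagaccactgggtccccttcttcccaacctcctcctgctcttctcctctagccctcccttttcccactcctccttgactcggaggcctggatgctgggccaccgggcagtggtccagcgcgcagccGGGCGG
The Grm2 window held 3 copies of the GC box GGGCGG, and one copy of each side of RE1, the element bound by the repressor REST. The left side, TCAGCACC, was in 1.32% of 32851 promoters of the same length and the right side, GGACAGC, in 5.28%, on either strand. In Grm2 they stood on the same strand, 7 bases apart, and the share of promoters with both sides was not counted. Grm3 had 1 GC box at the end of its window. All 4 windows had a GC box, which 32.7% of all promoters hold, and none of the 4 had TATAAA, which 12.4% hold. GC content was 71.2% for Grm2, 62.4% for Grm3, 65.2% for Grm7 and 68.4% for Grm8, against a median of 52.4% over all promoters. CpG number separated Grm8, with 29, from Grm7 with 9, Grm3 with 8 and Grm2 with 16, where the median promoter has 6. A match is a run of letters and not a shown site.

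In WT tissue the receptors formed 3 patterns. Grm2, Grm3, Grm5 and Grm7 were low in both embryonic tissues and high in the adult hippocampus. Grm4 was high in the MGE and the hippocampus and low in the cortex. Grm8 was the lowest in the hippocampus and varied least between tissues. In bulk tissue, fewer cells of a type and less RNA per cell cannot be told apart, for these levels and for all that follow.

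**Figure D1:**
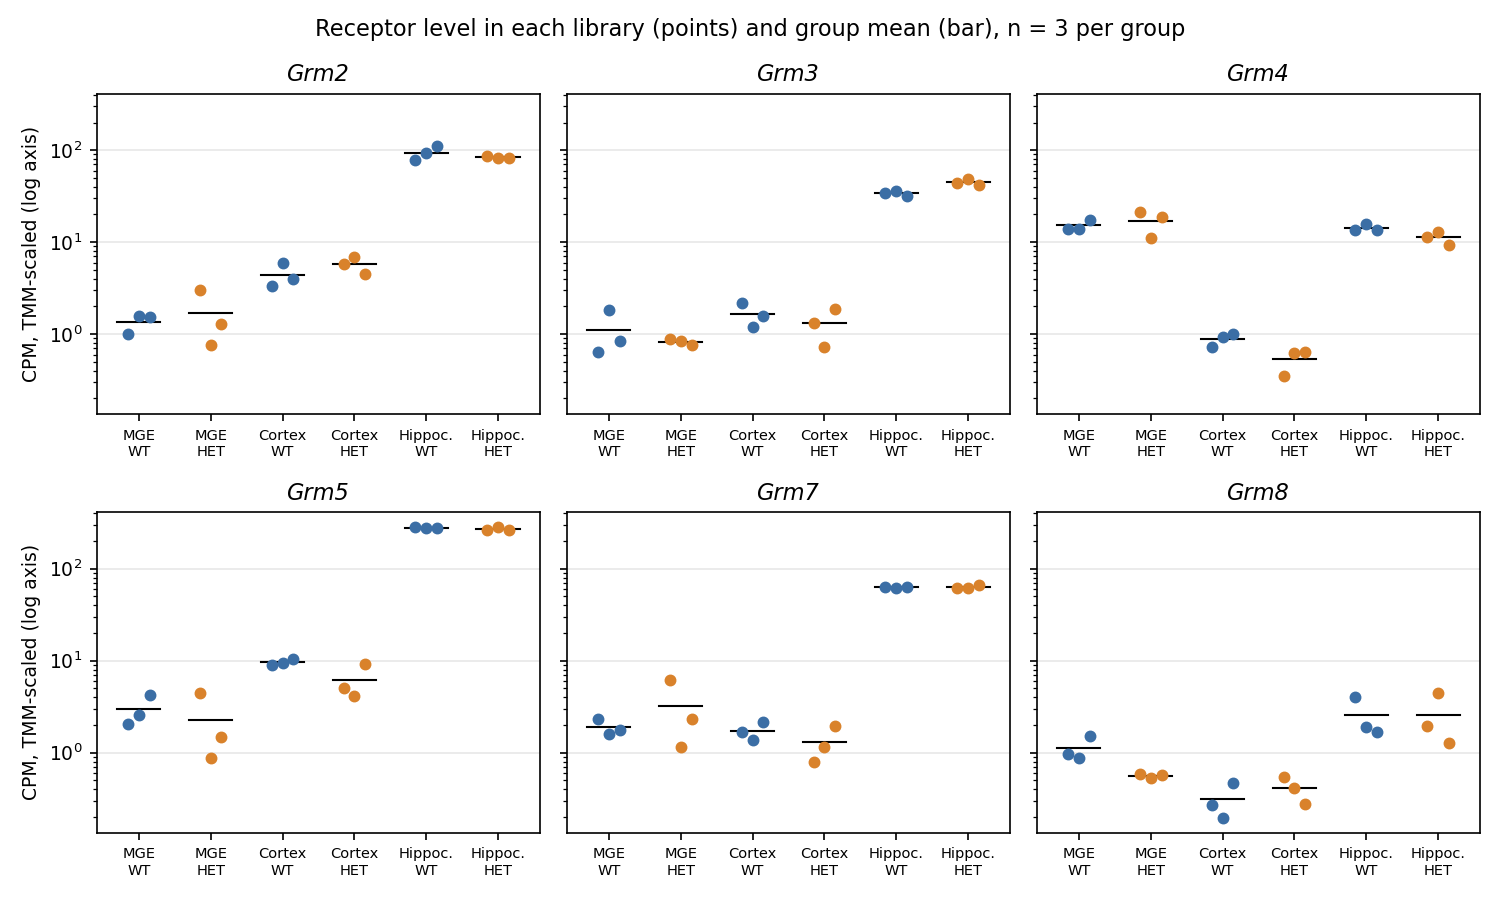
CPM of each receptor (log axis) in each library (points, blue WT and orange HET) by tissue and genotype, with the mean of the 3 libraries as a bar. Grm4 alone is as high in the MGE as in the hippocampus, while the cortex libraries of Grm4 all lie at or below 1.01 CPM.

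Grm5, the group I receptor that couples to Gq, lies on chromosome 7 (mm10, 87584168 to 88134907, plus strand), the chromosome that also carries Chd2, 14.0 Mb away. It had the highest mean CPM of the 6 in WT cortex and WT hippocampus, while in WT MGE Grm4 was higher (mean 15.2 against 2.945 CPM). Its values were 2.06, 2.56 and 4.21 CPM in WT MGE, 8.96, 9.40 and 10.4 CPM in WT cortex, and 286, 275 and 275 CPM in WT hippocampus. The ranges of the 3 WT tissues did not overlap. Grm5 was 3.28-fold lower in WT MGE than in WT cortex (log2 -1.71, SE 0.19, adjusted p = 3.87e-05) and 30.3-fold higher in hippocampus than in cortex (log2 4.92, SE 0.17, adjusted p = 3.62e-10).

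Grm2, a group II receptor that is mostly presynaptic, lies on chromosome 9 (106643095 to 106656082, minus strand). Its libraries read 0.994, 1.56 and 1.52 CPM in WT MGE, 3.35, 5.91 and 3.97 CPM in WT cortex, and 77.6, 92.3 and 112 CPM in WT hippocampus. As for Grm5, the 3 tissues were separate and the order was MGE, cortex, hippocampus. The MGE was 3.27-fold below the cortex (log2 -1.71, SE 0.27, adjusted p = 0.000403), and the hippocampus was 22.2-fold above it (log2 4.47, SE 0.22, adjusted p = 6.37e-09).

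Grm3, the group II receptor shared by neurons and astrocytes, lies on chromosome 5 (9485541 to 9725170, minus strand). It was 0.637, 1.82 and 0.842 CPM in WT MGE, 2.17, 1.20 and 1.59 CPM in WT cortex, and 34.7, 36.2 and 31.4 CPM in WT hippocampus. The embryonic ranges overlapped, and their difference did not pass (log2 -0.61 for MGE against cortex, SE 0.36, adjusted p = 0.177). The hippocampus was 21.4-fold above the cortex (log2 4.42, SE 0.31, adjusted p = 1.25e-07). The summed astrocyte list (Aqp4, Gfap, Aldh1l1, Slc1a2, Gja1) was 3070 to 3472 CPM in WT hippocampus and 135 to 177 CPM in WT cortex. Its part in the level of Grm3 was not tested.

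Grm7, a group III receptor found in the active zone of presynaptic terminals, spans 921.6 kb of chromosome 6 (110645581 to 111567230, plus strand), the longest of the 6 loci. Its WT libraries read 2.32, 1.59 and 1.75 CPM in the MGE, 1.66, 1.36 and 2.13 CPM in the cortex, and 62.9, 62.4 and 63.8 CPM in the hippocampus. Only the hippocampus stood apart, 38.4-fold above the cortex (log2 5.26, SE 0.16, adjusted p = 2.84e-11). Between MGE and cortex the fold was 0.16 on the log2 scale (SE 0.18, adjusted p = 0.485).

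Grm4, a group III receptor that lowers transmitter release, lies on chromosome 17 (27422387 to 27521403, minus strand). It read 14.0, 14.0 and 17.5 CPM in WT MGE, 0.724, 0.937 and 1.01 CPM in WT cortex, and 13.47, 15.7 and 13.7 CPM in WT hippocampus. The MGE and hippocampus ranges overlapped and both lay far above the cortex. Grm4 was 17.2-fold higher in MGE than in cortex (log2 4.10, SE 0.18, adjusted p = 1.28e-08) and 16.7-fold higher in hippocampus than in cortex (log2 4.07, SE 0.18, adjusted p = 6.29e-10). From MGE to hippocampus the difference was -0.04 (SE 0.14, adjusted p = 0.825). The summed inhibitory neuron list (Gad1, Gad2, Slc32a1, Dlx1, Dlx2, Lhx6) was 1654 to 2338 CPM in WT MGE, 41.6 to 67.9 CPM in WT cortex and 578 to 607 CPM in WT hippocampus, and its part in the Grm4 pattern was not tested.

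Grm8, the remaining group III receptor, lies on chromosome 6 (27275119 to 28135178, minus strand). It was 0.968, 0.876 and 1.52 CPM in WT MGE, 0.271, 0.194 and 0.469 CPM in WT cortex, and 4.03, 1.88 and 1.70 CPM in WT hippocampus. The 3 ranges did not overlap, but WT cortex rested on 6 to 13 counts a library. The MGE was 3.61-fold above the cortex (log2 1.85, SE 0.50, adjusted p = 0.0085) and the hippocampus 8.48-fold above it (log2 3.08, SE 0.49, adjusted p = 8.57e-05). Hippocampus over MGE was 1.23 on the log2 scale (SE 0.43, adjusted p = 0.0184). That last call was lost without hippocampus WT 1 (log2 0.71, adjusted p = 0.152), MGE WT 1 (1.11, 0.0617) or MGE WT 2 (1.07, 0.0688).

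Counted over the 6, 2 receptors passed as higher (Grm4 and Grm8) and 2 as lower (Grm2 and Grm5) in WT MGE against WT cortex, where 24.6% and 25.7% of all genes were called higher and lower. All 6 passed as higher in WT hippocampus than in WT cortex, where 40.2% of genes did, with a median of 4.45 on the log2 scale beside -0.01 over all genes. Against the WT MGE, 5 of 6 were higher, Grm4 being the exception, where 42.2% of genes were called higher. The HET libraries, fitted apart, gave the same 6 and 5 receptors higher in the hippocampus (backgrounds 38.6% against cortex and 40.6% against MGE). In HET MGE against HET cortex, Grm4 was higher (log2 4.95, SE 0.32, adjusted p = 1.22e-06), where 14.8% of genes were higher. Grm2 (log2 -1.75, SE 0.36, adjusted p = 0.00373) and Grm5 (log2 -1.47, SE 0.47, adjusted p = 0.0335) were lower, where 18.7% were. Grm8, called higher in WT MGE, did not pass in HET (log2 0.45, SE 0.52, adjusted p = 0.535), and its HET ranges overlapped. The Grm5 call in HET was lost in 7 of the 9 fits that left out a library (log2 -1.02 without cortex HET 3, adjusted p = 0.22). It was also lost on all libraries with DESeq2 (adjusted p = 0.068) and without the filter on low counts (adjusted p = 0.0913), and its HET ranges overlapped. Grm4 in HET hippocampus was 0.54 below HET MGE on the log2 scale (SE 0.24, adjusted p = 0.0611), a difference that passed without MGE HET 2 (log2 -0.78, adjusted p = 0.00581) or cortex HET 1 (-0.55, 0.0472). It passed too without the filter (-0.58, adjusted p = 0.0482) and in one fit of all 18 libraries (-0.55, 0.0218).

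**Figure D2:**
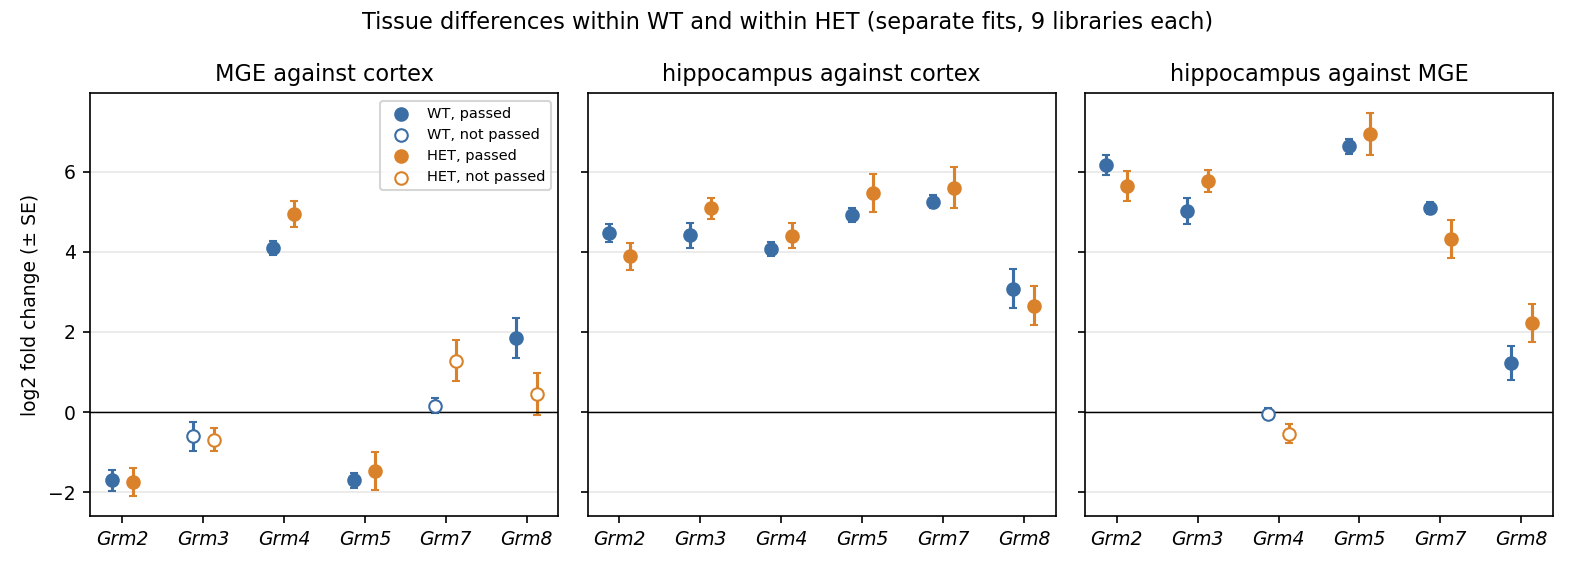
log2 fold change (± SE) of each receptor between tissues within WT (blue) and within HET (orange), filled where the adjusted p was under 0.05. All 6 are above 0 for hippocampus against cortex, and Grm4 stands at 4.10 and 4.95 for MGE against cortex but near or below 0 for hippocampus against MGE.

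Compared per kilobase of exon, the make-up of the receptor RNA differed by tissue. Summed over the 6, CPM per kb was 3.902 ± 0.463 (SD, n = 3) in WT MGE, 2.85 ± 0.129 in WT cortex and 70.9 ± 2.40 in WT hippocampus. Grm4 made up 65.2% ± 3.95 (SD, n = 3) of that sum in WT MGE, 5.21% ± 0.662 in WT cortex and 3.37% ± 0.297 in WT hippocampus. Group III receptors together were 76.5% of the sum in WT MGE, 16.5% in WT cortex and 18.8% in WT hippocampus. Group II (Grm2 and Grm3) held 50.7% in WT cortex and 42.8% in WT hippocampus, against 16.3% in WT MGE. Grm5, the group I member here, rose from 7.22% in WT MGE to 32.8% in WT cortex and 38.4% in WT hippocampus. Over the 6 receptors in each of 3 tissues, WT and HET ranges of a receptor's share did not overlap in 5 cases. They were Grm5 in the cortex (31.4 to 34.7% in WT, 16.7 to 31.1% in HET), Grm4 in the cortex (4.48 to 5.78%, 2.51 to 4.30%) and in the hippocampus (3.12 to 3.70%, 2.28 to 2.97%), Grm3 in the hippocampus (14.1 to 16.7%, 19.6 to 21.6%) and Grm8 in the MGE (2.29 to 3.51%, 0.985 to 2.07%). The shares of a library depend on each other, and no such count was made over all genes. By CPM, the genotypes did not overlap for 10.3% of all genes in the MGE, 11.0% in the cortex and 20.8% in the hippocampus. The cortex ranges of Grm5 did overlap by CPM. No test was made of shares.

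**Figure D3:**
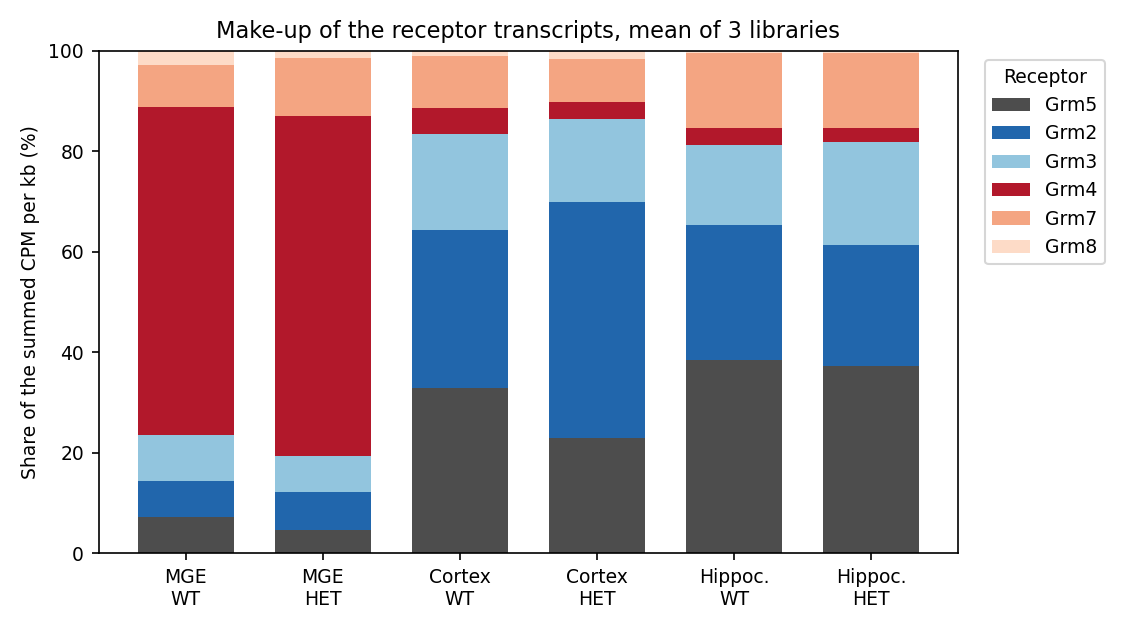
Share (%) of each receptor in the summed CPM per kb of the 6, mean of 3 libraries per group. Grm4 fills 65.2% of the WT MGE bar, while Grm5, Grm2 and Grm3 fill most of the cortex and hippocampus bars.

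Grm6, a further group III receptor that is best known from retinal bipolar cells, had 0 to 4 counts in every library and could not be tested.

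Patterns over the 6 groups were compared gene by gene, using the root mean square difference between centred group means of log2 CPM among 12036 genes, a description over 6 points that share libraries and depth. The genes nearest to Grm4 were Slc32a1, the vesicular GABA transporter (0.212), Ddc, aromatic amino acid decarboxylase (0.265), and Npy, neuropeptide Y (0.331). Nearest to Grm5 were Dsp (0.190), Camk2b, a subunit of the CaM kinase II of synapses (0.198), and Matk (0.229). For Grm3 they were Trf, which encodes transferrin (0.162), Nebl (0.164) and Lin7b (0.188), and for Grm2 Slc26a10 (0.191), Arhgdig (0.216) and Tmem59l (0.231). Grm7 was nearest to Agap2 (0.166), Map7 (0.169) and Sema3e, a semaphorin (0.180), and Grm8 to Cpeb2 (0.207), Mro (0.215) and Zcchc24 (0.249). Among the receptors themselves, Grm3 and Grm7 were closest (0.534) and Grm4 and Grm5 farthest (3.18).

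Between genotypes, 1 receptor was called in 1 tissue. In the hippocampus Grm3 was 34.7, 36.2 and 31.4 CPM in WT and 44.2, 48.2 and 41.4 CPM in HET. All 3 HET libraries lay above all 3 WT libraries. The rise was 1.31-fold (log2 0.39, SE 0.08, adjusted p = 0.0476), 1 receptor of 6 called where 1.07% of genes were called and 0.262% called higher. The call stood close to the threshold: limma-voom gave adjusted p = 0.0679, and it was lost without each of 5 of the 6 hippocampus libraries in turn (WT 2, WT 3, HET 1, HET 2 and HET 3, adjusted p from 0.0882 to 0.114), while DESeq2 gave 0.00568. The log2 fold stayed between 0.32 and 0.44 in all of these fits.

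Cell markers beside Grm3 in the hippocampus moved in part. Summed astrocyte markers ran from 3070 to 3472 CPM in WT libraries and from 3180 to 3422 CPM in HET ones, with overlap. Most of that sum was Slc1a2. Of the list, Aqp4 ran from 125 to 150 CPM in WT and from 164 to 176 CPM in HET, without overlap. Gfap, Aldh1l1, Slc1a2 and Gja1 overlapped. Summed radial glia and progenitor markers (763 to 790 CPM in WT, 736 to 757 CPM in HET) did not overlap. Most of that sum was Slc1a3, a glutamate transporter (563.5 to 604.4 CPM in WT, 528.6 to 563.7 CPM in HET, with overlap). Within this list Fabp7 was higher in HET (9.35 to 11.1 CPM in WT, 24.6 to 28.4 CPM in HET) and Nes lower (11.7 to 12.4 and 9.72 to 11.3 CPM), both without overlap. The summed Cajal-Retzius list (Reln, Trp73, Lhx1, Ebf3) ran from 90.75 to 101.5 CPM in WT and from 87.1 to 90.67 CPM in HET, without overlap. Most of it was Reln (83.8 to 90.9 CPM in WT, 74.4 to 78.7 CPM in HET, without overlap), while Trp73, Lhx1 and Ebf3 overlapped. Summed oligodendrocyte markers overlapped (5554 to 7002 CPM in WT, 5995 to 8796 CPM in HET). Summed endothelial markers (Cldn5, Pecam1, Cdh5) ran from 57.4 to 65.3 CPM in WT libraries and from 40.7 to 48.4 CPM in HET ones, without overlap. Their part in the Grm3 result was not tested.

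The other hippocampal receptors did not pass. Grm4 read 13.47, 15.7 and 13.7 CPM in WT libraries against 11.5, 13.03 and 9.43 CPM in HET ones, and lay lower in every HET library (log2 -0.33, SE 0.13, adjusted p = 0.242). With Grm3 it makes 2 receptors of 6 whose groups did not overlap, where 20.8% of genes did not. Grm2 averaged 93.9 ± 17.2 CPM (SD, n = 3) in WT libraries and 83.4 ± 2.35 CPM in HET libraries (log2 -0.17, SE 0.11, adjusted p = 0.503). Grm5 averaged 279 ± 6.33 CPM in WT against 271 ± 13.8 CPM in HET, and Grm7 63.0 ± 0.730 CPM against 62.9 ± 2.61 CPM, with log2 folds of -0.04 and 0.00 and an SE of 0.06 each. Grm8 had an SE of 0.53 on a log2 fold of 0.02, its values in HET being 1.96, 4.44 and 1.28 CPM. The high libraries of Grm8, WT 1 and HET 2, were also the 2 lowest for the summed hippocampus list (Prox1, Wfs1, Camk2a, Neurod6, Zbtb20), at 6156 and 5946 CPM against 6583 to 7331 CPM in the others. Most of that sum was Camk2a, at 5633 to 6431 CPM in WT and 5298 to 6069 CPM in HET. The part of this list in the Grm8 values was not tested.

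**Figure D4:**
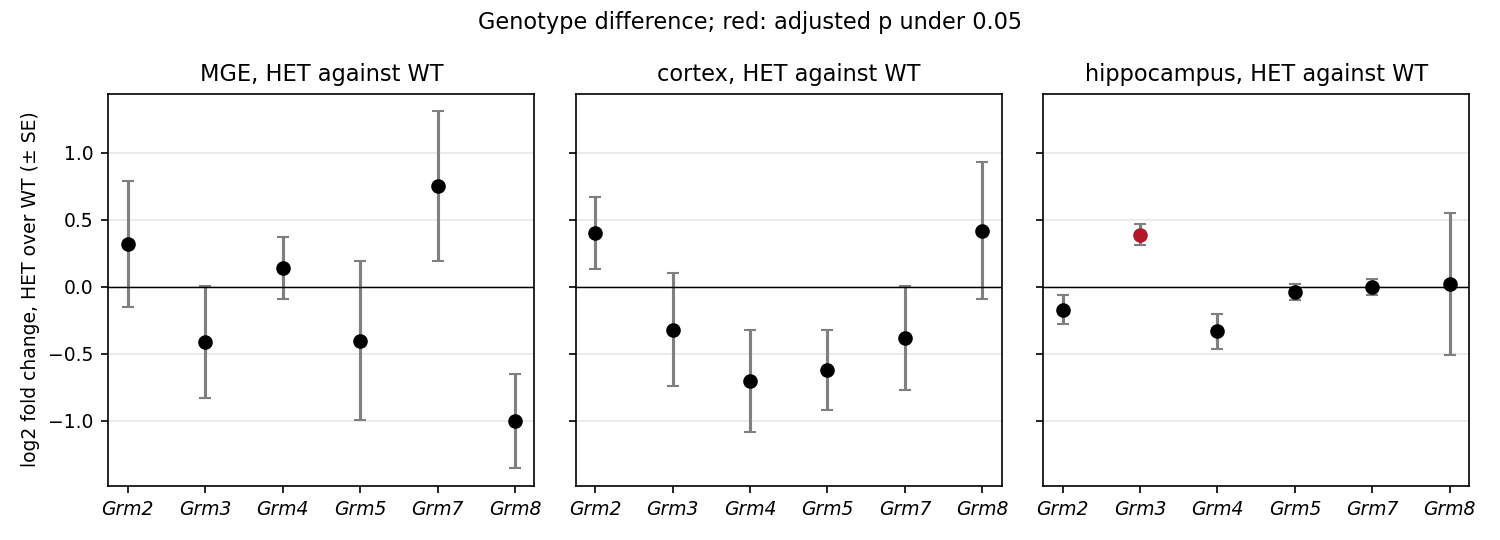
log2 fold change of HET over WT (± SE) for each receptor in the 3 tissues. Grm3 in the hippocampus (0.39, red) is the single point with an adjusted p under 0.05, and the embryonic tissues have wide errors at levels of a few CPM.

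In the MGE edgeR called no receptor, where 0.0479% of genes were called. At an unadjusted p under 0.05 there was 1 receptor, Grm8, beside 659 of 14624 genes, and DESeq2 and limma-voom called 0. Grm8 was 0.968, 0.876 and 1.52 CPM in WT and 0.583, 0.533 and 0.569 CPM in HET, a log2 fold of -1.0 (SE 0.35, adjusted p = 0.98). Its groups did not overlap, 1 receptor of 6 where 10.3% of genes did not overlap, and its HET libraries held 19 to 21 counts. Grm4, the most abundant receptor of this tissue, read 21.1, 11.0 and 18.7 CPM in HET, on both sides of its WT libraries (log2 0.14, SE 0.23, adjusted p = 0.982). Grm7 read 6.16, 1.15 and 2.33 CPM in HET (log2 0.75, SE 0.56, adjusted p = 0.98). Grm2 and Grm5 followed the same order, with HET 1 at 3.05 and 4.41 CPM and HET 2 at 0.758 and 0.870 CPM.

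HET 1 was the highest of the 6 MGE libraries for 4 receptors (Grm2, Grm4, Grm5 and Grm7), and HET 2 the lowest for 5. Without HET 1 the log2 fold of HET over WT was -0.40 for Grm2, -0.04 for Grm4 and -0.13 for Grm7, against 0.67, 0.38 and 1.15 without HET 2. The direction in the MGE therefore rested on 1 library for these 3 receptors. For Grm3 it rested on WT 2, the one WT library at 1.82 CPM: the log2 fold was -0.41 (SE 0.42) with it and 0.16 without it. Beside this, the summed Cajal-Retzius list (Reln, Trp73, Lhx1, Ebf3) was highest in HET 1 (86.9 CPM) and lowest in HET 2 (9.35 CPM), with the other MGE libraries between 19.8 and 33.4 CPM. Summed neuron markers were 3664 CPM in HET 1 and 3100 CPM in HET 2, within the WT range of 2906 to 3833 CPM. Their part in the spread of the receptors was not tested.

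**Figure D5:**
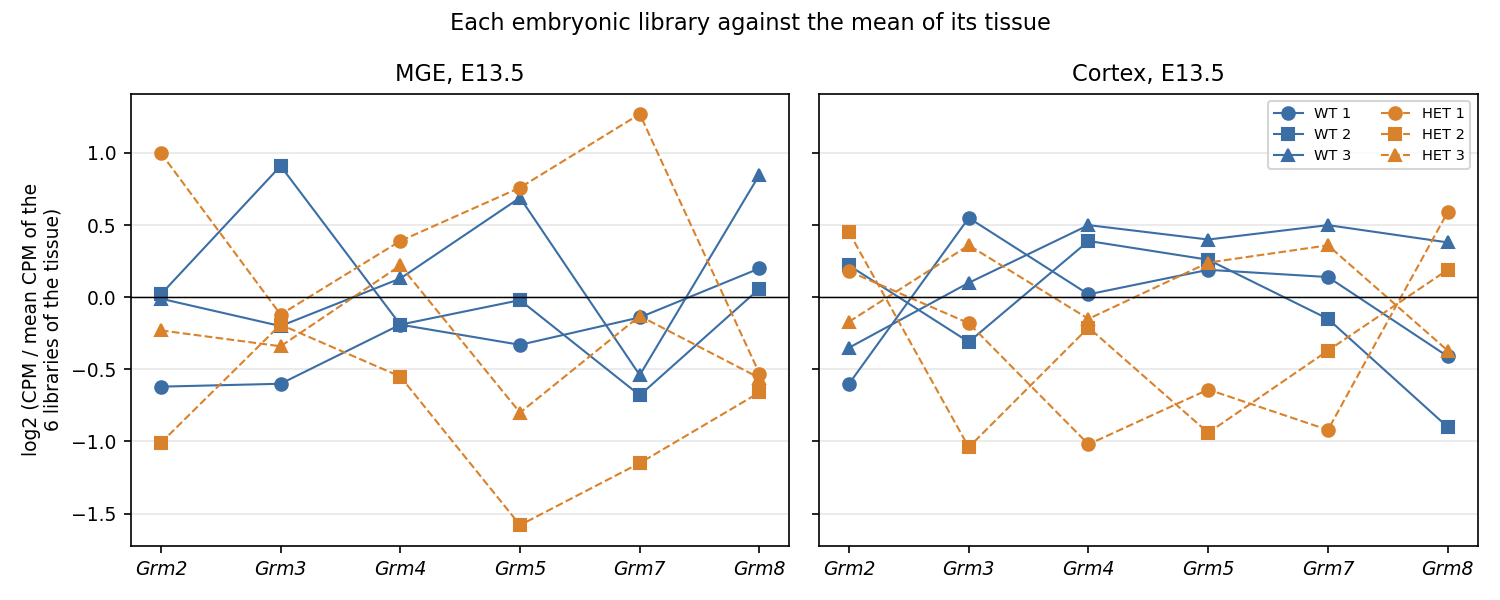
log2 ratio of each receptor in each E13.5 library to the mean of the 6 libraries of its tissue (WT solid blue, HET dashed orange; symbols mark the replicate). MGE HET 1 lies at or near the top and MGE HET 2 at or near the bottom for Grm2, Grm4, Grm5 and Grm7, and cortex HET 1 and HET 2 lie below the other cortex libraries for Grm5.

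In the cortex edgeR called no receptor, where 0.0% of genes were called. At an unadjusted p under 0.05 it had 0 receptors and 1165 of 14757 genes, and DESeq2 and limma-voom called 0 receptors. Grm5 was 8.96, 9.40 and 10.4 CPM in WT and 5.04, 4.11 and 9.27 CPM in HET. HET 1 and HET 2 lay below all WT libraries and HET 3 within their range, and the log2 fold was -0.62 (SE 0.30, adjusted p = 0.578). Without HET 3 it was -1.04 (SE 0.18) and passed (adjusted p = 0.0028), in a fit that called 4598 genes. HET 1 and HET 2 also had the lowest summed neuron markers of the 6 cortex libraries, 2072 and 2019 CPM against 2835 to 3286 CPM. They were lowest too for summed excitatory markers (1145 and 1075 CPM against 1718 to 2105 CPM) and summed inhibitory markers (18.9 and 15.4 CPM against 41.6 to 67.9 CPM). Summed radial glia and progenitor markers were highest in HET 1 and HET 2, 4869 and 4682 CPM against 3878 to 4424 CPM. Summed choroid plexus markers were uneven, at 1475, 3.97 and 1153 CPM in the WT cortex libraries against 8.75, 228 and 421 CPM in the HET ones. Summed markers of meninges and mesenchyme ran from 271 to 438 CPM in WT cortex libraries and from 412 to 590 CPM in HET ones, with overlap. The part of these markers in the cortex values was not tested.

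Grm4 was lower in every HET cortex library (0.351, 0.616 and 0.642 CPM) than in any WT one, with a log2 fold of -0.70 (SE 0.38, adjusted p = 0.578). It was the 1 receptor of 6 whose cortex groups did not overlap, where 11.0% of genes did not, and it rested on 11 to 29 counts a library. Grm2 ran the other way from Grm5, with 3.35, 5.91 and 3.97 CPM in WT and 5.75, 6.95 and 4.49 CPM in HET (log2 0.40, SE 0.27, adjusted p = 0.589). Grm3 (log2 -0.32), Grm7 (-0.38) and Grm8 (0.42) had SEs of 0.42, 0.39 and 0.51. Their ranges overlapped between genotypes.

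Whether the genotype effect differed between tissues was tested in fits of all 18 libraries. No receptor passed by edgeR, DESeq2 or limma-voom, where edgeR called 0.0% of genes for MGE against cortex, 0.0124% for hippocampus against cortex and 0.0062% for hippocampus against MGE. The lowest p among the receptors belonged to Grm4, whose effect was 0.85 higher in the MGE than in the cortex on the log2 scale (SE 0.38, adjusted p = 0.71 by edgeR). For Grm3 the effect in the hippocampus exceeded that in the cortex by 0.70 (SE 0.42, adjusted p = 0.467), so that the hippocampal rise of Grm3 was not shown to be particular to that tissue. For MGE against cortex Grm4 was the 1 receptor with an unadjusted p under 0.05, beside 1130 of 16125 genes, and the other 2 differences had 0. A single edgeR effect shared by the 3 tissues called 0 receptors, 0 of them at an unadjusted p under 0.05, where 0.0% of genes were called, with log2 folds from -0.32 (Grm5, SE 0.21, adjusted p = 0.742) to 0.13 (Grm7, SE 0.24).

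The genes that work with the receptors were read from 6 lists. In the HET against WT comparisons edgeR called 0 of 91 tested genes of these lists in the MGE (3 at an unadjusted p under 0.05, beside 659 of 14624 over all genes) and 0 of 94 in the cortex (9 at that level, beside 1165 of 14757). In the hippocampus 16 of 96 had an unadjusted p under 0.05, beside 2378 of 15283 over all genes. After adjustment 1 of the 96 passed, where 1.07% of all genes did. It was Eif4ebp2, a repressor of cap-dependent translation, which averaged 28.7 ± 1.96 CPM in WT libraries against 21.8 ± 0.454 CPM in HET ones (SD, n = 3; log2 -0.39, SE 0.08, adjusted p = 0.0367). This gene was 1 of 14 of the list on receptor-dependent depression and translation, whose median log2 fold was -0.01. Among 16 scaffolds and binding partners none passed and the median was -0.08, the lowest p belonging to Elfn2 (log2 -0.36, SE 0.09, adjusted p = 0.0751), an adhesion protein that binds group III receptors, and Homer1 (log2 -0.38, SE 0.10, adjusted p = 0.123), the scaffold of group I receptors. The 16 genes of Gq signalling (median -0.08), the 21 of Gi/o signalling (-0.02), the 13 kinases, arrestins and RGS proteins (-0.03) and the 16 of glutamate supply and clearance (-0.06) had none that passed. The median over all genes was 0.00.

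Between WT tissues many genes of these lists were called, as were many genes overall. Of the 96 list genes, 70 were higher and 14 lower in hippocampus than in cortex, where 40.2% and 40.7% of all genes were. In MGE against cortex 25 were higher and 30 lower, where 24.6% and 25.7% of all genes were. Of the 16 Gq genes, 12 were higher and 1 lower in hippocampus than in cortex, among them Prkcb, protein kinase C beta, at 1104 ± 73.6 CPM against 37.1 ± 4.40 CPM. The Gi/o list had 14 higher and 4 lower of 21, led by Kcnj6, a subunit of the GIRK channel that Gi/o receptors open (71.5 ± 12.01 CPM against 0.155 ± 0.0562 CPM). Of 16 scaffolds 13 were higher and 2 lower, among them Shank3 (log2 4.97, SE 0.09, adjusted p = 1.11e-12). Glutamate supply and clearance had 11 higher and 2 lower of 16, led by Slc1a2, the main astrocyte glutamate transporter (2455 ± 134 CPM against 27.4 ± 3.61 CPM). In WT MGE against WT cortex that list had 3 higher and 8 lower, with the vesicular glutamate transporters Slc17a6 at 0.601 ± 0.340 CPM against 88.4 ± 7.34 CPM and Slc17a7 at 0.961 ± 0.368 CPM against 67.0 ± 4.13 CPM. The scaffold list had 3 higher and 5 lower of 16 there, Elfn1 being higher (log2 0.85, SE 0.26, adjusted p = 0.019) and Elfn2 lower (log2 -1.0, SE 0.16, adjusted p = 0.00048).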

How the data were processed

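The authors deposited raw counts per gene symbol, one column for each of 18 poly(A) libraries (Trizol RNA, NEBNext Ultra kit, per the labels' protocols). Tools listed in the submitters' processing notes are TopHat2 2.1.1, DESeq2, SAMtools, Trimmomatic and FastQC, with mm10 as the build. No counting program, annotation or strand setting was given in the sources used here. The counts were tested with edgeR 4.0.16 (R 4.3.3; filterByExpr with a minimum count of 10 and a minimum total of 15, TMM, robust quasi-likelihood fit, Benjamini-Hochberg threshold 0.05), in fits of the 6 libraries of a tissue, the 9 of a genotype, or all 18. SE is the log2 fold divided by the square root of F. CPM were divided by union exon length (GENCODE M21, mm10) for levels per kb. Annotated genes overlap every receptor. All but Grm3 have 1 on the opposite strand, and all but Grm2 have at least 1 on the same strand. The overlapping genes have no line in the table or, for Mir592 in Grm8, 0 counts. Without a known strand setting, reads of the opposite strand cannot be told apart from the receptor's. Reads of same-strand genes could not be told apart by strand in any case. Libraries of one group differed by more than sampling noise (chi-square per degree of freedom 5.79 to 100.5 over 18 pairs). At the depth of these libraries, 26841671 to 38802765 counts, 10 counts are 0.258 to 0.373 CPM. The alternatives tried were scaling by RLE or by the upper quartile, testing without the filter, DESeq2 1.42.0, limma-voom (limma 3.58.1), a replicate block, a Y-linked covariate, one fit of all libraries, and leaving out each library. The receptors and the gene lists were chosen with earlier results of these data known. Named genes were the receptors, Chd2, up to 3 called genes of largest fold per list (or 2 of lowest p), and the 3 genes of nearest pattern. Some values of genes on these lists are not reported here.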

Additional observations from a re-analysis of the deposited data

How the results depend on the processing

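Over the receptors' values, 471 of 504 fits without one library and 400 of 415 other alternatives kept direction and side of the threshold. Both counts pool genotype tests with tissue contrasts, many of large fold. The genotype by tissue tests and the shared effect entered them with 1 receptor each. The single genotype call, Grm3 in the hippocampus, was lost in 5 of 6 fits without one library. With DESeq2 the genes called for HET against WT were 32 in the MGE (7 by edgeR), 9 in the cortex (0) and 423 in the hippocampus (164). The cortex gave 1 without the filter and 4 in one fit of all 18 libraries. The hippocampus gave 291 without the filter, 89 with the Y-linked covariate and 11 in one fit of all libraries. That covariate is a log2 level, and its spread in the hippocampus rested on summed Y-linked levels of at most 0.104 CPM. Receptors called in the hippocampus fell from 1 to 0 with limma-voom, with the Y-linked covariate and in one fit of all libraries. Leaving out one library gave 5 to 27 genes called in the MGE, 0 to 4598 in the cortex (4598 without HET 3), 23 to 292 in the hippocampus (23 without HET 3, 292 without WT 1), with 0 to 1 receptor called in the cortex and 0 to 1 in the hippocampus. The genotype by tissue tests called 12 (MGE and cortex), 76 (hippocampus and cortex) and 36 (hippocampus and MGE) genes with DESeq2, and the last 2 with upper-quartile scaling and 3 with limma-voom; without one library they called 0 to 1044, 1 to 2791 and 1 to 12, the highest without cortex HET 3 in both of the first. The shared effect called 7 with DESeq2, 8 with limma-voom, and 0 to 4 without one library.

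Directions that turned were small or of low receptors. In the hippocampus Grm7 was -0.000848 with RLE scaling, -0.00068 without the filter, -0.0018 with DESeq2, -0.00312 in one fit of all libraries and -0.0302 to 0.0196 without one library. Grm8 there was -0.0433 with limma-voom, -0.047 with the replicate block, -0.13 with the Y-linked covariate and -0.65 to 0.53 without one library. Without one library the MGE effects ran from -0.40 to 0.67 (Grm2), -0.69 to 0.16 (Grm3), -0.0446 to 0.38 (Grm4) and -0.13 to 1.15 (Grm7). WT MGE against cortex ran from -0.0267 to 0.33 for Grm7, and WT hippocampus against MGE from -0.13 to 0.0571 for Grm4. The causes were not tested, beyond the fewer libraries.

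Replicate numbers gave no sign of pairing WT with HET libraries within a tissue: 1 of 9 same-numbered pairs correlated above 0.1, from -0.17 to 0.15. Different-numbered pairs ran from -0.35 to 0.39. Whether same-numbered MGE and cortex libraries came from the same embryo was not tested. The replicate block gave 80 genes called in the hippocampus, against 164. The Y-linked covariate could not be fitted in the MGE. Depth limits Grm8 and the embryonic levels of Grm2, Grm3 and Grm7, which rest on 6 to 130 counts a library for Grm8 and 21 to 222 for the others. It also limits Grm4 in the cortex (11 to 29 counts) and Grm5 in the MGE (31 to 159 counts).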
